A study of Mus musculus with 12 samples.

Results

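The genes described here mark successive stages of hippocampal neurogenesis and cell division: the progenitor genes Nes and Sox2, the neuroblast genes Dcx, Igfbpl1, Sox11, Sox4, Eomes and Draxin, and the cycling-cell genes Mki67 and Top2a. These 10 genes were chosen by name as stage markers, and all were found among the 44760 genes that the tables of both ages share. RNA from the hippocampus of male APPswe/PS1dE9 mice on a C57BL/6 background was sequenced in 12 libraries, 3 in each of 4 groups: saline or nicotine at 7 months of age, and saline or nicotine at 18 months. All of the mice carried the same transgenes, human amyloid precursor protein with the Swedish mutation and presenilin 1 lacking exon 9, so the saline mice are transgenic controls and no comparison here involves mice without the transgenes. Every mouse had a pump under the skin for 14 days, which released saline or nicotine hydrogen tartrate, the salt of an agonist of nicotinic acetylcholine receptors, at a dose labelled 48 mg/kg/h. The labels do not say that the libraries of a group came from separate animals, so the p-values measure the spread between these libraries, which may be technical.

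In the adult dentate gyrus, radial glia-like stem cells of the subgranular zone, which contain nestin and SOX2, give rise to dividing intermediate progenitors that pass through an Eomes-positive stage. Their progeny become neuroblasts and immature neurons that express doublecortin and the transcription factors Sox4 and Sox11, and some of these mature into granule neurons. None of the genes belongs to these cells alone: Sox2 is also expressed by astrocytes and oligodendrocyte precursors, Nes by vascular cells, Eomes by Cajal-Retzius cells, and Mki67 and Top2a by any dividing cell, including oligodendrocyte precursors and microglia.

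Total counts were 25071195 to 29245972 per library at 7 months and 21260068 to 23715015 at 18 months. Levels are given in CPM, counts scaled to a common library size by TMM factors over the 12 libraries, with the SD over n = 3 libraries. Markers of mature dentate granule cells summed to 583 to 1140 CPM per library, and none of the 14 was at 0 in any group. The 7-month saline library 2 stood apart: transcripts longer than 5000 nt took 32.5% of its counts, while their share was 23.2% to 24.1% for the rest of its age and 36.0% to 36.9% for the 18-month libraries. It also had the highest summed level of the subventricular interneuron lineage list (520 CPM, 345 to 400 CPM in the other 7-month libraries) and, among the 7-month libraries, of the Cajal-Retzius list (111 CPM, 58.7 to 73.4 CPM in the rest). The 7-month nicotine library 1 held pituitary RNA (177 CPM over 7 genes, at most 3.95 CPM elsewhere) and choroid plexus RNA (6230 CPM over 12 genes, 23.3 to 1640 CPM elsewhere). The headers of both first 7-month libraries begin differently from those of the other 7-month libraries, and the labels do not say what this marks. The 7-month libraries numbered 3 had 18100 CPM (saline) and 8310 CPM (nicotine) of Rn18s-rs5, and the rest of that age had 451 to 712 CPM. Each of these pairs was left out in an alternative fit. Malat1 was at 282 to 384 CPM in the 7-month libraries and at 5160 to 6310 CPM in the 18-month libraries. Rn18s-rs5 was at 21800 to 27400 CPM in the 18-month libraries. Each age has its own table, and age and any difference in library preparation or sequencing between the ages cannot be told apart.

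Per kilobase of the longest annotated transcript, Sox2 had the highest level of the 10 genes in every group, with 16.7 ± 3.34 CPM per kb in 7-month saline, 13.4 ± 3.51 in 7-month nicotine, 16.8 ± 2.0 in 18-month saline and 12.4 ± 1.07 in 18-month nicotine. Its libraries did not overlap those of the next gene in any group. Nes, Sox4, Sox11 and Dcx formed the middle of the order in 7-month saline, with levels of 2.53 ± 0.327, 1.94 ± 0.651, 1.71 ± 0.103 and 1.47 ± 0.535 CPM per kb, and each neighbouring pair overlapped. At 18 months Sox4 stood next to Sox2, at 2.95 ± 0.217 CPM per kb under saline, where it overlapped Nes, and at 3.14 ± 0.0528 CPM per kb under nicotine, where it lay above every library of Sox11, the next gene. Mki67 and Top2a were low throughout, at 0.140 to 0.359 CPM per kb in group means, and overlapped each other in both 7-month groups and in 18-month saline. Eomes was lowest in 3 groups, with 0.0128 to 0.0379 CPM per kb, and in 7-month saline it stood at 0.200 ± 0.186 CPM per kb, with libraries that overlapped those of Mki67.

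**Figure D1:**
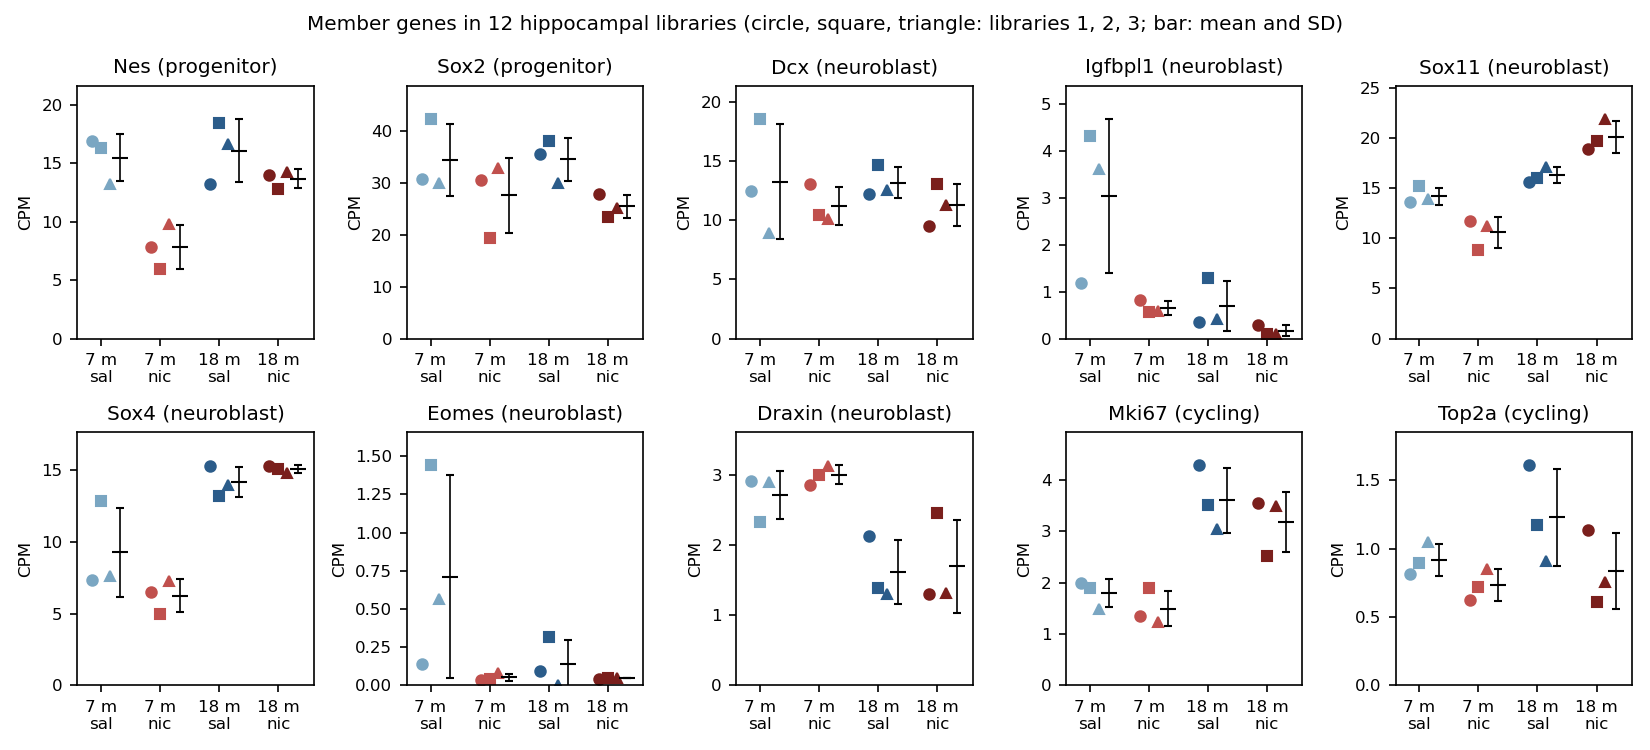
Level of each gene (vertical axis, CPM, linear from 0, own scale per panel) in the 4 groups (7 m, 18 m: months; sal: saline; nic: nicotine); each symbol is 1 library and the bar beside it is the mean and SD over 3 libraries, cut at 0 for Eomes. The 3 nicotine libraries lie below the 3 saline libraries at 7 months for Nes, Igfbpl1, Sox11, Sox4 and Eomes, and the 7-month saline library 2 (square) is the highest of its group for Sox2, Dcx, Igfbpl1, Sox11, Sox4 and Eomes.

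The first question was whether these genes differed between nicotine and saline at the younger age. At 7 months Nes, Igfbpl1, Sox11, Sox4 and Eomes were lower in all 3 nicotine libraries than in any saline library, but none of the 9 genes tested passed the adjusted threshold of 0.05 in edgeR's quasi-likelihood test with Benjamini-Hochberg adjustment over 17596 genes. Over all genes 2 were called, 0.0114% of those tested. Of the 9 members, 4 had nicotine libraries all below the saline libraries and 0 had them all above, where 8.37% and 9.04% of all genes did so. Log2 fold changes were below 0 for 8 of the 9, with a median of -0.34 against -0.01 over all genes, and 3 had an unadjusted p below 0.05 (1144 genes in all). DESeq2's Wald test called 83 genes in this comparison, Nes and Igfbpl1 among them. Eomes did not pass the filter on low counts in any comparison and Igfbpl1 did not pass it in the comparison at 18 months, so both are also given as counts. In whole-tissue RNA, fewer cells of a type and less RNA per cell cannot be told apart.

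Among the progenitor genes, Nes, which codes for the intermediate filament protein nestin (chr3:87971078-87980451, plus strand, GRCm38), had 16.9, 16.3 and 13.2 CPM in the saline libraries and 7.86, 5.98 and 9.77 CPM in the nicotine libraries at 7 months. The groups did not overlap, and the means were 15.5 ± 2.0 and 7.87 ± 1.89 CPM (SD, n = 3). The log2 fold change was -0.99 (SE 0.21, adjusted p = 0.633 with edgeR), and DESeq2 gave the same -0.99 with an adjusted p of 0.00718. Without the saline library 2 it was -0.93. Summed markers of endothelial cells and pericytes, which can also contain nestin, were 382, 357 and 300 CPM with saline and 324, 289 and 333 CPM with nicotine, and overlapped. Of the 14 genes of that list 10 had log2 fold changes below 0, with a median of -0.32, and 0 were called. Their part in the Nes values was not tested. Sox2, a transcription factor that maintains the stem cell state (chr3:34650405-34652461, plus strand), had 30.8, 42.3 and 30.0 CPM with saline and 30.6, 19.4 and 32.9 CPM with nicotine. These ranges overlapped, and the log2 fold change was -0.33 (SE 0.23, adjusted p = 0.656). The Sox2 gene lies in an intron of the noncoding gene Sox2ot on the same strand, which had a mean of 20.6 CPM, so reads from its unspliced RNA could have been counted for Sox2.

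Among the neuroblast genes, Igfbpl1, which codes for a secreted protein related to the insulin-like growth factor binding proteins (chr4:45809468-45826923, minus strand), had the lowest log2 fold change of the 9 genes tested. It had 35, 111 and 97 counts in the saline libraries at 7 months (1.19, 4.31 and 3.62 CPM) and 24, 14 and 15 counts in the nicotine libraries (0.831, 0.562 and 0.582 CPM). Saline libraries 2 and 3 were high, saline library 1 was close to the nicotine libraries, and the groups did not overlap. Saline library 1 is also the saline library of this age whose header begins differently. The part of this split in the Igfbpl1 and Eomes counts was not tested. The log2 fold change was -2.21 (SE 0.50, adjusted p = 0.651 with edgeR, adjusted p = 0.0115 with DESeq2). Without the saline library 2 it was -1.85, with an adjusted p of 0.441 in edgeR's test. Eomes, the transcription factor of intermediate progenitors (chr9:118478212-118486132, plus strand), had 4, 37 and 15 counts under saline and 1, 1 and 2 counts under nicotine. The sums of 4 and 56 counts, scaled by library size, gave a nicotine to saline ratio of 0.0736, with a 95% interval of 0.0194 to 0.199 that covers counting error only and not the spread between libraries. Without the saline library 2, which held 37 of the 56 counts, the ratio was 0.149. Without filtering, edgeR gave Eomes an adjusted p of 0.423 in this comparison. Markers of Cajal-Retzius cells, which also express Eomes, summed to 73.4, 111 and 65.7 CPM with saline and 58.7, 65.4 and 66.6 CPM with nicotine. All 5 of those tested had values below 0 (median -0.41) and 0 were called, and their part in the Eomes values was not tested. The subventricular interneuron lineage list, whose markers belong to another source of neuroblasts, had 9 of 10 values below 0 (median -0.25), with 0 called, and its part in the Igfbpl1 values was not tested.

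In the same 7-month libraries, Sox11, a transcription factor of immature neurons (chr12:27334264-27342574, minus strand), had 13.6, 15.2 and 13.9 CPM with saline and 11.7, 8.79 and 11.2 CPM with nicotine. Every nicotine library was lower, with a log2 fold change of -0.44 (SE 0.15, adjusted p = 0.656), and offsets for transcript length and GC content brought it to -0.20. Its relative Sox4 (chr13:28948919-28953713, minus strand) had 7.36, 12.9 and 7.62 CPM with saline and 6.51, 4.98 and 7.25 CPM with nicotine. The groups were separated by a narrow gap and the log2 fold change of Sox4 was -0.59 (SE 0.27, adjusted p = 0.656), but -0.26 without the saline library 2. Dcx, which codes for the microtubule-binding protein doublecortin (chrX:143855842-143933311, minus strand), had 12.5, 18.6 and 8.97 CPM with saline and 13.1, 10.5 and 10.1 CPM with nicotine. These ranges overlapped; the log2 fold change was -0.27 (SE 0.27, adjusted p = 0.71), and 0.06 without the saline library 2. Draxin, a secreted axon guidance protein (chr4:148098437-148130698, minus strand), had 2.92, 2.33 and 2.91 CPM with saline and 2.87, 3.01 and 3.14 CPM with nicotine, with a log2 fold change of 0.13 (SE 0.18, adjusted p = 0.779). It was the only tested member with a positive value at this age.

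The cycling genes overlapped between the groups at 7 months. Mki67, which codes for the chromosome-coating protein Ki-67 (chr7:135689784-135716361, minus strand), had 2.0, 1.90 and 1.49 CPM with saline and 1.35, 1.89 and 1.24 CPM with nicotine, a log2 fold change of -0.29 (SE 0.26, adjusted p = 0.681). Top2a, the DNA topoisomerase that untangles chromosomes before division (chr11:98992943-99024189, minus strand), had 0.814, 0.893 and 1.05 CPM with saline and 0.623, 0.722 and 0.853 CPM with nicotine, a log2 fold change of -0.34 (SE 0.27, adjusted p = 0.663). Top2a rested on 18 to 28 counts per library, so only large differences could have been detected.

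**Figure D2:**
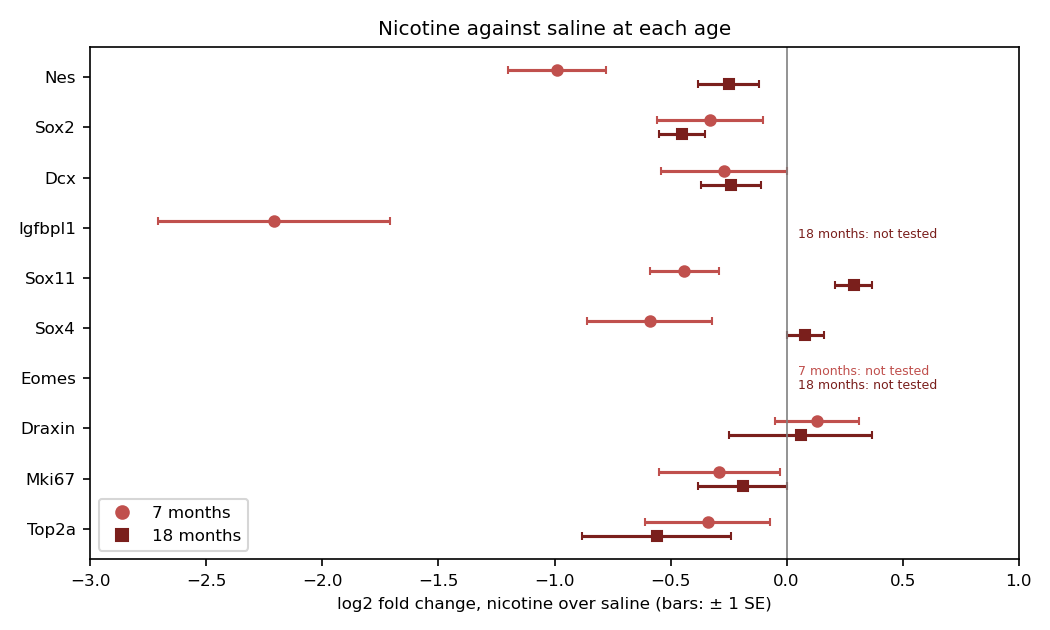
Log2 fold change of nicotine over saline (horizontal axis) for each gene at 7 months (circles) and 18 months (squares), from edgeR, with bars of 1 SE; genes that did not pass the filter on low counts are marked as not tested. Igfbpl1 (-2.21) and Nes (-0.99) lie farthest below 0 at 7 months, and Sox11 lies at -0.44 at 7 months and at 0.29 at 18 months.

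The same question was asked at the older age. At 18 months Sox2 was lower and Sox11 higher in all 3 nicotine libraries than in any saline library, and 0 of the 8 genes tested were called by edgeR, where 8 of 18196 genes (0.044%) were. Of the 8 tested members, 1 had nicotine libraries all below and 1 had them all above the saline libraries, where 5.15% and 6.62% of all genes did. Log2 fold changes were below 0 for 5 of the 8, with a median of -0.21 (0.00 over all genes), and 2 had an unadjusted p below 0.05 (1225 genes in all). DESeq2 called 57 genes, of which 1 was a member, Sox2.

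Sox2 had 35.6, 38.0 and 30.0 CPM in the 18-month saline libraries and 27.8, 23.5 and 25.1 CPM in the nicotine libraries, with means of 34.5 ± 4.11 and 25.5 ± 2.19 CPM. The log2 fold change was -0.45 (SE 0.10, adjusted p = 0.404 with edgeR, adjusted p = 0.0406 with DESeq2). Over single libraries left out, the edgeR value stayed between -0.54 and -0.36. Summed markers of oligodendrocyte precursors were 312, 324 and 293 CPM with saline and 293, 291 and 294 CPM with nicotine, and those of astrocytes 6180 to 6840 and 6260 to 6570 CPM; both overlapped. Below 0 were 9 of the 12 precursor genes (median -0.06) and 10 of the 12 astrocyte genes (median -0.04), with 0 called in either list, and their part in the Sox2 values was not tested. Nes, whose groups overlapped at this age, had 13.2, 18.5 and 16.7 CPM with saline and 14.0, 12.8 and 14.3 CPM with nicotine (log2 fold change -0.25, SE 0.13, adjusted p = 0.787).

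Sox11 had 15.6, 16.0 and 17.1 CPM in the 18-month saline libraries and 18.9, 19.7 and 21.9 CPM in the nicotine libraries, a log2 fold change of 0.29 (SE 0.08, adjusted p = 0.561). Every nicotine library was higher, the opposite of the order at 7 months. Sox4 overlapped between the groups, with 15.3, 13.2 and 14.0 CPM with saline and 15.3, 15.1 and 14.8 CPM with nicotine, a log2 fold change of 0.08 (SE 0.08, adjusted p = 0.912). Dcx had 12.2, 14.7 and 12.6 CPM with saline and 9.53, 13.1 and 11.3 CPM with nicotine, a log2 fold change of -0.24 (SE 0.13, adjusted p = 0.816). Draxin had 2.14, 1.39 and 1.31 CPM with saline and 1.31, 2.47 and 1.32 CPM with nicotine, and its log2 fold change of 0.06 took either sign when single libraries were left out. Both groups overlapped for Dcx and for Draxin.

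Igfbpl1 had few counts at 18 months, 8, 29 and 9 under saline and 7, 2 and 2 under nicotine. The nicotine libraries were again all below the saline libraries, by a single count at the nearest pair, and scaled by library size the sums of 11 and 46 counts had a ratio of 0.241 (95% interval 0.112 to 0.472, counting error only). The saline library 2 held 29 of the 46 counts and the nicotine library 1 held 7 of the 11, and the ratio was 0.434 without the former and 0.136 without the latter. At 7 months the corresponding ratio, from 53 and 243 counts, was 0.225 (0.164 to 0.303). With no filter, edgeR gave Igfbpl1 a log2 fold change of -2.03 at 18 months, with an adjusted p of 0.433. Eomes had 2, 7 and 0 counts under saline and 1, 1 and 1 under nicotine, and the ratio of 0.336 had an interval from 0.0585 to 1.35, so no difference in Eomes was detectable at this depth at 18 months. The saline library 2 of each age held the most Igfbpl1 and the most Eomes of its age, and the 7-month saline libraries had the same order for both genes.

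**Figure D3:**
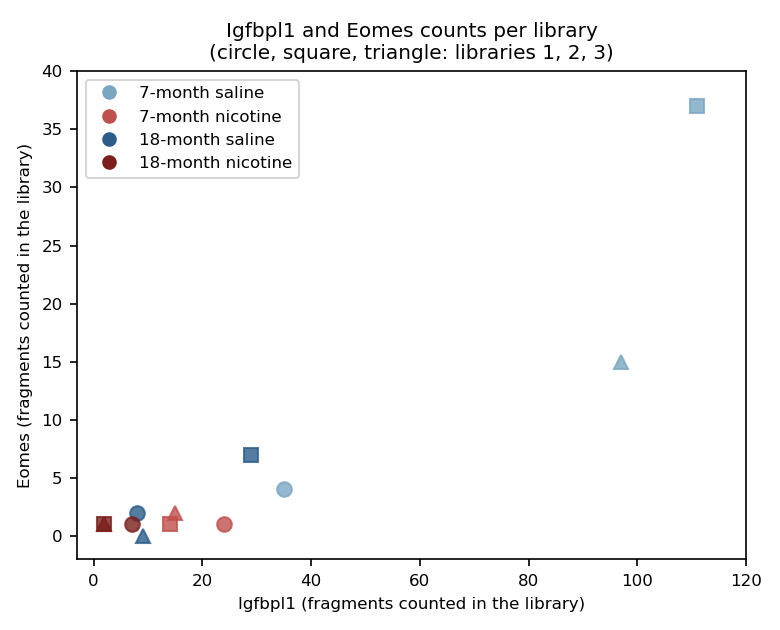
Counts of Igfbpl1 (horizontal axis) and Eomes (vertical axis) in each of the 12 libraries, with 1 symbol per library (circle, square and triangle for libraries 1, 2 and 3) and colour for the group. The 7-month saline libraries 2 (111 and 37 counts) and 3 (97 and 15) lie apart from the others, which have at most 35 counts of Igfbpl1 and at most 7 of Eomes.

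The cycling genes again overlapped between nicotine and saline at 18 months. Mki67 had 4.29, 3.51 and 3.04 CPM with saline and 3.56, 2.52 and 3.50 CPM with nicotine (log2 fold change -0.19, SE 0.19, adjusted p = 0.91). Top2a had 1.61, 1.17 and 0.906 CPM with saline and 1.14, 0.606 and 0.756 CPM with nicotine (log2 fold change -0.56, SE 0.32, adjusted p = 0.819). The latter rested on 13 to 36 counts per library.

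Averaged over both ages, nicotine gave 0 calls among the 9 tested members and 7 among 19171 genes (0.0365%) with edgeR's test. Nes had an average log2 fold change of -0.61 (SE 0.13, adjusted p = 0.205) and Igfbpl1 one of -2.11 (SE 0.46, adjusted p = 0.218). For Nes the value was -0.99 at 7 months and -0.25 at 18 months. DESeq2 called both, with adjusted p of 0.00352 for Nes and 0.00509 for Igfbpl1, among 79 genes in all. Sox2 had an average of -0.38 (SE 0.13, adjusted p = 0.64), and 3 members had an unadjusted p below 0.05, of 1316 genes in all. Below 0 were 8 of the 9 values, the exception being Draxin at 0.11.

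The difference of the nicotine effect between the ages was tested as an interaction in all 12 libraries, and 0 of 9 members were called, against 1 of 19171 genes (0.00522%). Sox11 had the smallest p of the members: the nicotine effect was higher at 18 than at 7 months by 0.74 on the log2 scale (SE 0.17, unadjusted p = 0.000792, adjusted p = 0.526 with edgeR, adjusted p = 0.0275 with DESeq2, which called 36 genes). With length and GC offsets this difference was 0.48 (adjusted p = 0.642). Nes had a difference of 0.74 (SE 0.25, adjusted p = 0.601) and Sox4 one of 0.66 (SE 0.28, adjusted p = 0.623), which was 0.33 without the 7-month saline library 2. For Igfbpl1 the difference was 0.16 with an SE of 1.14, an uncertainty too wide to show whether the ages differed. Unadjusted p was below 0.05 for 3 members and for 1504 genes. The 14 mature granule cell genes, whose list held none of the members, had 1 log2 fold change above 0 at 7 months (median -0.20) and 14 above 0 at 18 months (median 0.26), with 0 called at either age or in the difference (median 0.55). In the difference the smallest p belonged to Trpc6, a cation channel (0.66, SE 0.15, adjusted p = 0.526), Stxbp6, a SNARE-binding protein (0.62, SE 0.16, adjusted p = 0.541), and Lct, the lactase gene (0.90, SE 0.39, adjusted p = 0.623). Their summed level was 691, 722 and 741 CPM with saline and 583, 667 and 645 CPM with nicotine at 7 months, and 727, 751 and 743 against 955, 671 and 1140 CPM at 18 months. The part of granule cell content in the Sox11 values was not tested.

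The 18-month and 7-month groups were compared within each infusion. These contrasts use the same saline or nicotine libraries as the comparisons above, and a large part of all genes was called in them. Rises and falls with age describe the 18-month libraries against the 7-month libraries, where age and library preparation or sequencing cannot be told apart. Under saline edgeR called 8844 of 19171 genes (46.1%), 4124 higher (21.5%) and 4720 lower (24.6%), and 4 of 9 members: Mki67 and Sox4 rose, and Igfbpl1 and Draxin fell. Under nicotine it called 11368 genes (59.3%), 5659 higher (29.5%) and 5709 lower (29.8%), and 6 of 9 members: Mki67, Sox4, Sox11 and Nes rose, and Igfbpl1 and Draxin fell. The members' shares, 4 of 9 and 6 of 9, are near the 46.1% and 59.3% of all genes. DESeq2 called 8836 genes under saline and 11203 under nicotine, and the same numbers of members, 4 and 6.

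Mki67 was at 1.80 ± 0.268 CPM at 7 months and 3.61 ± 0.633 CPM at 18 months under saline (log2 fold change 1.00, SE 0.23, adjusted p = 0.00424), and at 1.49 ± 0.346 and 3.19 ± 0.584 CPM with nicotine (1.10, SE 0.23, adjusted p = 0.00156). All 6 of the 18-month libraries were higher than any 7-month library. Mki67 has the longest transcript of the members, 10061 nt, and with length and GC offsets the same changes were 0.30 (adjusted p = 0.355) and 0.11 (adjusted p = 0.745). Top2a, the other cycling gene, did not pass: its log2 fold changes were 0.42 (SE 0.29, adjusted p = 0.251) under saline and 0.20 (SE 0.31, adjusted p = 0.595) under nicotine. Of the 35 other cell cycle genes tested, 1 rose and 7 fell under saline and 2 rose and 9 fell under nicotine, so that 8 and 11 were called where 46.1% and 59.3% of all genes were. With length and GC offsets the counts were 0 and 7, and 0 and 8, where 6377 and 7867 of all genes were called in either direction. Ccna2, a cyclin of DNA replication and entry into mitosis, fell by 0.91 in both (adjusted p = 0.00117 and 0.000485), and Ccnd2, a cyclin of the start of the cycle, rose by 0.49 and 0.65 (adjusted p = 0.00523 and 0.000518). With length and GC offsets Ccnd2 was no longer called in either (0.10 and 0.05), while Ccna2 was (-0.81 and -0.85). The cell cycle inhibitor Cdkn1a fell by 1.51 and by 2.04 (adjusted p = 0.0029 and 0.000234), the replication helicase subunit Mcm6 fell by 0.61 under saline (adjusted p = 0.00638), and the replication clamp Pcna fell by 0.78 under nicotine (adjusted p = 0.000461).

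The promoters of the 2 cycling genes are shown because both genes are switched on by division. Only Mki67 passed the test of age without offsets, and neither gene passed with them. The 2 genes were not tested against each other, and the part of their promoters in these values was not tested. The sequences are the 250 bases before the RefSeq start of each gene on GRCm38.p6, 5′ to 3′ on the gene's strand, for Mki67 chr7:135716380-135716629 (minus strand) and for Top2a chr11:99024190-99024439 (minus strand). Capitals mark CCAAT boxes (CCAAT or, on the other strand, ATTGG) and cell cycle homology regions (TTTGAA or TTCAAA), the pair of elements known from promoters of late cell cycle genes; no 2 of these matches overlap.
Mki67: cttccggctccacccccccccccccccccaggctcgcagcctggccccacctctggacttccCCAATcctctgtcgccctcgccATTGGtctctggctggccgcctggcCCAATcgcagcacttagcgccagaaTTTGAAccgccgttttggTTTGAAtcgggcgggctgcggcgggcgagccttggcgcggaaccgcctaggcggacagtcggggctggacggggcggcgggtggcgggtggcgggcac
Top2a: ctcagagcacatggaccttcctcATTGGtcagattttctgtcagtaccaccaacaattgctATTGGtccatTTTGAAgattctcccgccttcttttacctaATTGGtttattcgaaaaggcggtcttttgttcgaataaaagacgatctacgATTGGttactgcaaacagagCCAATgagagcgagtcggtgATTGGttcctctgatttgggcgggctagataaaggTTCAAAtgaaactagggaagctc
Mki67 had 3 CCAAT boxes, 188, 166 and 141 bases before the start, and 2 cell cycle homology regions at 116 and 98. Top2a had 6 CCAAT boxes, at 227, 189, 149, 98, 78 and 58, and 2 cell cycle homology regions at 179 and 23. Among 32851 promoter windows of this length, 33.8% held a CCAAT box and 16.0% a TTTGAA or TTCAAA. A match describes the letters in the window and does not show that a factor binds there.

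Sox4 rose with age in both infusions. It was at 9.29 ± 3.12 and 14.2 ± 1.04 CPM with saline (log2 fold change 0.61, SE 0.20, adjusted p = 0.0264) and at 6.24 ± 1.16 and 15.1 ± 0.253 CPM with nicotine (1.27, SE 0.20, adjusted p = 0.000311). Every 18-month library was above every 7-month library, and the nearest pair was the 7-month saline library 2 at 12.9 and the 18-month saline library 2 at 13.2 CPM. Without the 7-month saline library 2 the saline change was 0.95, and it was not called without the 7-month saline library 1 (0.46, adjusted p = 0.113) or 3 (0.50, 0.0907), or without the 18-month saline library 1 (0.55, 0.0835) or 3 (0.63, 0.052). With length and GC offsets both changes were called, at 0.45 (adjusted p = 0.0476) and 1.02 (adjusted p = 0.00049). Sox11 rose by 0.93 under nicotine (SE 0.12, adjusted p = 8.93e-05), from 10.6 ± 1.54 to 20.1 ± 1.57 CPM. Under saline its values were 14.2 ± 0.855 and 16.3 ± 0.777 CPM (0.19, SE 0.12, adjusted p = 0.192). With the offsets Sox11, whose transcript has 8311 nt, was at 0.09 under nicotine (adjusted p = 0.584) and at -0.39 under saline (adjusted p = 0.0332), the opposite sign.

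Without offsets both of these relatives rose with age under nicotine, and with length and GC offsets only Sox4 did. The part of their promoters in these values was not tested. Their promoters are shown from the same source and with the same marking: Sox4 at chr13:28953700-28953949 (minus strand) and Sox11 at chr12:27342719-27342968 (minus strand).
Sox4: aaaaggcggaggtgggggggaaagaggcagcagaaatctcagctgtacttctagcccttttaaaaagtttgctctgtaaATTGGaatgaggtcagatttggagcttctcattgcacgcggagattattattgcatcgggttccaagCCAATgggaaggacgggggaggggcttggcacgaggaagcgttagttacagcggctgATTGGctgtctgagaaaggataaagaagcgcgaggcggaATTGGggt
Sox11: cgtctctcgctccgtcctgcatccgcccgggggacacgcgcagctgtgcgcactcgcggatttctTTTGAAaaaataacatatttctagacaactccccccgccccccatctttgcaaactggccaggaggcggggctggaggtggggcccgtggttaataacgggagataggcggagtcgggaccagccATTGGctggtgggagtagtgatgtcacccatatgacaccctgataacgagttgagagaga
Sox4 had 4 CCAAT boxes, 171, 104, 47 and 8 bases before the start, and 0 matches to the cell cycle homology region, while Sox11 had 1 of each, at 60 and 185. Of the other members with an entry, Eomes had 2 CCAAT boxes, Dcx and Sox2 had 1, Nes and Draxin had 0, and none had a cell cycle homology region; Igfbpl1 had no entry.

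Igfbpl1 fell with age in both infusions. Its mean was 3.04 ± 1.64 CPM at 7 months and 0.690 ± 0.533 CPM at 18 months under saline (log2 fold change -2.13, SE 0.54, adjusted p = 0.00805), and 0.658 ± 0.150 and 0.161 ± 0.117 CPM with nicotine (-1.97, SE 0.74, adjusted p = 0.0364). Under saline the 18-month library 2, with 1.30 CPM, was above the 7-month library 1, with 1.19 CPM, and under nicotine the ages did not overlap. The saline call held without any single library and with the offsets (-1.94, adjusted p = 0.0186). The nicotine call was lost with the offsets (-1.62, adjusted p = 0.109), without any 1 of the 7-month nicotine libraries (adjusted p = 0.102, 0.053 and 0.0559) and without the 18-month nicotine library 2 or 3 (0.107 and 0.105). Eomes had 56 counts in the 7-month saline libraries and 9 in the 18-month saline libraries, a ratio of 0.198 (95% interval 0.086 to 0.403, counting error only), and with no filter edgeR gave it a log2 fold change of -2.36 (adjusted p = 0.0268). Without the 7-month saline library 2 the ratio was 0.4 and the unfiltered value -1.35 (SE 0.77, adjusted p = 0.201), no longer called, in a fit chosen after seeing the data. The 7-month saline library 1, with 4 Eomes counts, lay within the range of the 18-month saline libraries.

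Draxin fell from 2.72 ± 0.338 to 1.62 ± 0.458 CPM with saline (log2 fold change -0.75, SE 0.27, adjusted p = 0.0375) and from 3.01 ± 0.134 to 1.70 ± 0.666 CPM with nicotine (-0.82, SE 0.27, adjusted p = 0.0188). The ages did not overlap in either infusion, and with length and GC offsets the changes were -0.91 (adjusted p = 0.0182) and -1.01 (adjusted p = 0.00793). The saline call was lost without the 7-month saline library 1 or 3 (adjusted p = 0.0995 for each) and without the 18-month saline library 2 (0.117) or 3 (0.134), and the nicotine call without the 18-month nicotine library 1 (0.0797) or 3 (0.0713). Dcx was not called, at 13.3 ± 4.85 and 13.2 ± 1.32 CPM with saline (-0.02, SE 0.22, adjusted p = 0.951) and 11.2 ± 1.62 and 11.3 ± 1.76 CPM with nicotine (0.01, SE 0.22, adjusted p = 0.981). With the offsets Dcx, whose transcript has 9074 nt, was called lower, by -0.54 under saline (adjusted p = 0.0135) and -0.89 under nicotine (adjusted p = 0.000523). Nes rose under nicotine, from 7.87 ± 1.89 to 13.7 ± 0.793 CPM (0.80, SE 0.18, adjusted p = 0.00242; with offsets 0.50, adjusted p = 0.0271), and had 15.5 ± 2.0 and 16.1 ± 2.71 CPM with saline (0.06, SE 0.17, adjusted p = 0.802). Sox2 was not called, at 0.01 (SE 0.19, adjusted p = 0.981) under saline and -0.12 (SE 0.19, adjusted p = 0.614) under nicotine.

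**Figure D4:**
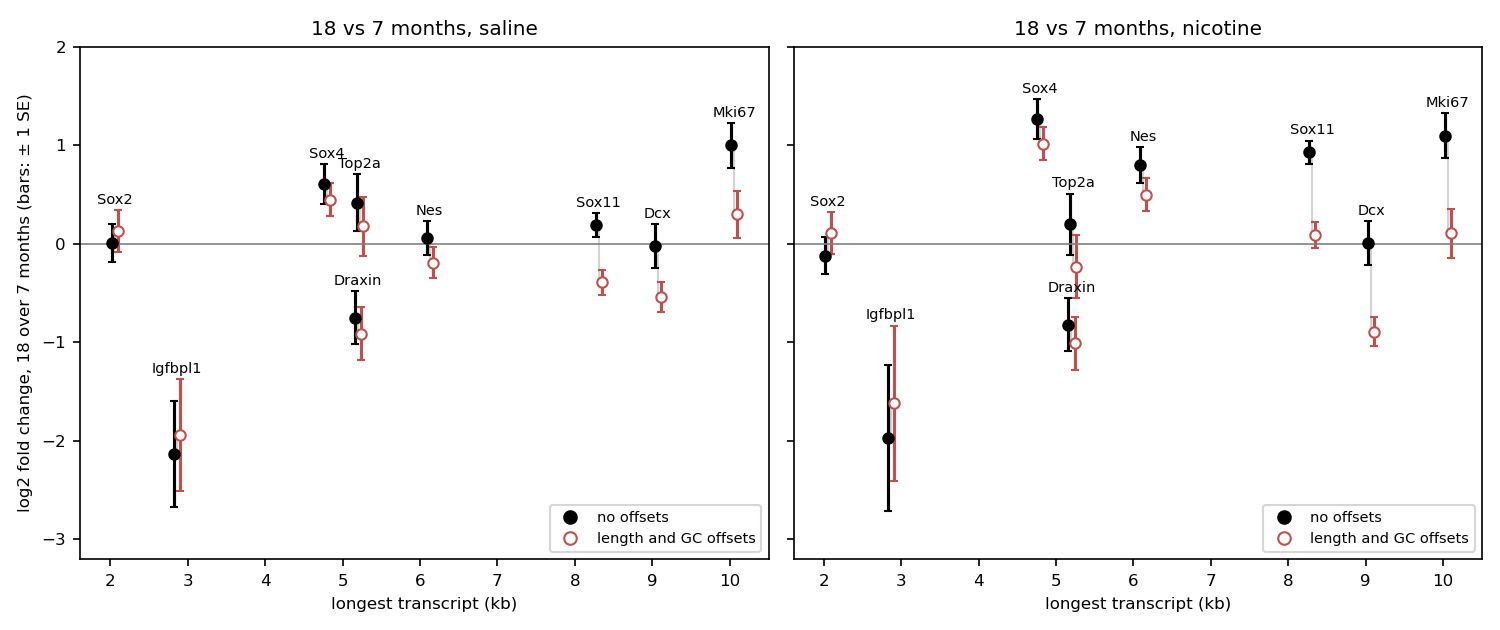
Log2 fold change of 18 over 7 months (vertical axis, bars of 1 SE) for the 9 tested genes, placed by the length of the longest transcript (horizontal axis, kb), under saline (left) and nicotine (right), from edgeR without offsets (filled) and with length and GC offsets (open). The offsets lower the values of the longest genes most, Mki67 from 1.00 to 0.30 and from 1.10 to 0.11, and leave Sox4 above 0 and Igfbpl1 and Draxin below 0.

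Other genes of the same stages were read from lists that held none of the 10 members. In the nicotine comparisons at 7 months, at 18 months and in their difference, 0 of the 18 stem and progenitor genes, 0 of the 25 neuroblast and immature neuron genes and 0 of the 35 cell cycle genes tested (34 at 18 months) were called by edgeR. The genes named from each list are the 3 with the smallest p in the comparison. At 7 months 12 of the 18 stem and progenitor genes were below 0 (median -0.15). Lpar1, a lysophosphatidic acid receptor of neural stem cells, had 27.8 ± 1.12 CPM with saline and 15.7 ± 3.38 CPM with nicotine (-0.84, SE 0.17, adjusted p = 0.633), and Nr2e1, the stem cell nuclear receptor TLX, had 14.2 ± 1.81 and 8.74 ± 0.907 CPM (-0.72, SE 0.16, adjusted p = 0.651). Hes1, a repressor downstream of Notch, had 10.4 ± 2.84 and 15.5 ± 0.116 CPM (0.57, SE 0.19, adjusted p = 0.656), the opposite direction. The neuroblast genes had a median of -0.01. St8sia2, which makes the polysialic acid carried by NCAM on migrating neuroblasts, had 3.11 ± 1.11 and 1.09 ± 0.214 CPM (-1.53, SE 0.32, adjusted p = 0.633), Mex3a, an RNA-binding protein, had a log2 fold change of -0.61 (SE 0.20, adjusted p = 0.656), and Rnd2, a small GTPase of migrating neurons, one of 0.43 (SE 0.13, adjusted p = 0.656). Among the cell cycle genes (median -0.06) the inhibitor Cdkn1a had 20 ± 4.77 and 45.0 ± 21.7 CPM (1.16, SE 0.34, adjusted p = 0.656), the helicase subunit Mcm7 a value of 0.32 (SE 0.15) and the condensin subunit Smc2 one of -0.40 (SE 0.19), both with an adjusted p of 0.656. Of the granule cell genes Trpc6 had -0.46 (SE 0.12), Stxbp6 -0.34 (SE 0.10) and Lct -0.47 (SE 0.18), each with an adjusted p of 0.656.

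At 18 months 13 of the 18 stem and progenitor genes were below 0 (median -0.06). Sox9, a glial and stem cell transcription factor, had 39.6 ± 3.32 CPM with saline and 28.8 ± 0.442 CPM with nicotine (-0.47, SE 0.07, adjusted p = 0.0769). Hopx, a marker of quiescent stem cells and astrocytes, had 41.3 ± 2.62 and 33.5 ± 0.826 CPM (-0.32, SE 0.06, adjusted p = 0.258), and Hes5, another Notch target, 6.95 ± 1.55 and 3.55 ± 0.730 CPM (-0.99, SE 0.21, adjusted p = 0.357). The neuroblast genes had a median of -0.03, with 0.24 for Dpysl5 (SE 0.09, adjusted p = 0.686), -0.55 for Cd24a (SE 0.23, adjusted p = 0.73) and -0.89 for Calb2, the calretinin gene (SE 0.38, adjusted p = 0.734). Among the cell cycle genes (median -0.06) Cdkn1a had 7.04 ± 1.88 and 11 ± 0.253 CPM (0.62, SE 0.16, adjusted p = 0.519), the kinetochore motor gene Cenpe a value of -0.61 (SE 0.19, adjusted p = 0.613) and Pcna one of -0.17 (SE 0.08, adjusted p = 0.767). Of the granule cell genes, Calb1, the calbindin gene, had 0.28 (SE 0.09, adjusted p = 0.613), C1ql2, a secreted synaptic protein, 0.43 (SE 0.14, adjusted p = 0.618) and Maml2, a Notch coactivator, 0.21 (SE 0.08, adjusted p = 0.684).

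In the difference between the ages, Hes5 had the smallest p of the stem and progenitor genes (-1.94, SE 0.43, adjusted p = 0.526). Its level at 7 months was 6.80 ± 1.44 CPM with saline and 13.3 ± 6.08 CPM with nicotine, and these means have the reverse of their order at 18 months. Emx2, a transcription factor, had a difference of 0.49 (SE 0.13, adjusted p = 0.526) and Nr2e1 one of 0.69 (SE 0.18, adjusted p = 0.541). The neuroblast genes were St8sia2 at 1.48 (SE 0.37, adjusted p = 0.526), Rnd2 at -0.59 (SE 0.17, adjusted p = 0.601) and Calb2 at -1.33 (SE 0.50, adjusted p = 0.623). The cell cycle genes were Cenpe at -0.93 (SE 0.27, adjusted p = 0.601), Smc2 at 0.42 (SE 0.20) and the mitotic kinase Plk1 at -0.54 (SE 0.28), the latter pair with an adjusted p of 0.623.

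With age, 9 of 25 neuroblast and immature neuron genes fell and 2 rose under saline, and 11 fell and 4 rose under nicotine, with medians of -0.33 and -0.24 against -0.03 over all genes in both. Of all genes 24.6% fell and 21.5% rose under saline, and 29.8% and 29.5% under nicotine, and the counts called in either direction, 11 and 15 of 25, are near the 46.1% and 59.3% of all genes. The counts with length and GC offsets were 9 and 1 under saline and 11 and 2 under nicotine. Of all genes, 6377 and 7867 were called in either direction with these offsets. Stmn2, a microtubule regulator of growing axons, fell from 336 ± 32.7 to 230 ± 24.6 CPM with saline (-0.54, SE 0.10, adjusted p = 0.0017) and by 0.75 with nicotine (SE 0.10, adjusted p = 0.000134). Tubb3, the neuronal tubulin, fell from 312 ± 10.3 to 154 ± 11.4 CPM with nicotine (-1.02, SE 0.13, adjusted p = 8.11e-05). Both are also expressed by mature neurons. Rnd2 fell by 0.68 (adjusted p = 0.00128) and by 1.27 (adjusted p = 2.96e-05), and Fxyd7, a regulator of the sodium pump, fell by 1.36 under saline (adjusted p = 0.00131). Ncam1, a cell adhesion molecule, rose by 0.65 (adjusted p = 0.000374) and 0.75 (adjusted p = 7.95e-05), which the offsets brought to 0.25 and 0.16.

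Of the 18 stem and progenitor genes 2 rose and 3 fell with age under saline and 5 rose and 5 fell under nicotine, so that 5 and 10 were called where 46.1% and 59.3% of all genes were. With the offsets 1 rose and 2 fell, and 3 rose and 5 fell, where 6377 and 7867 of all genes were called. Hopx fell by 0.70 (SE 0.10, adjusted p = 0.00035) and by 0.83 (SE 0.10, adjusted p = 6.9e-05). Under saline Sox9 rose by 0.81 (SE 0.17, adjusted p = 0.00286) and Notch1 by 0.59 (SE 0.15, adjusted p = 0.00867; 0.09 with offsets), and Prom1, a membrane protein of stem cells, fell by 0.39 (SE 0.11, adjusted p = 0.0135). Under nicotine Hes5 fell by 1.90 (adjusted p = 0.000345) and Hes1 by 1.03 (adjusted p = 0.000432), while Nr2e1 rose by 0.76 (adjusted p = 0.000408). Summed astrocyte markers were 4590 to 5390 CPM at 7 months and 6180 to 6840 CPM at 18 months, although of the 12 genes of that list 4 rose and 6 fell under saline (median -0.26) and 4 rose and 7 fell under nicotine (median -0.51). The part of astrocyte content in these values was not tested.

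Of the 14 mature granule cell genes 3 rose and 4 fell under saline, and 8 rose and 0 fell under nicotine, so that 7 and 8 were called where 46.1% and 59.3% of all genes were. With the offsets the counts were 2 and 2, and 6 and 1, where 6377 and 7867 of all genes were called. Maml2 rose by 1.03 (adjusted p = 0.000796) and 1.24 (adjusted p = 0.000128), and Glis3, a transcription factor, by 1.58 (adjusted p = 0.0211) and 2.94 (adjusted p = 0.000621). Calb1 and Trpc6 fell under saline, by 0.47 (adjusted p = 0.00298) and 0.35 (adjusted p = 0.0153). Under nicotine Prox1, the transcription factor that sets granule cell identity, rose by 1.73 (adjusted p = 0.000511) and Rfx3, a regulator of cilium genes, by 1.01 (adjusted p = 0.000643), which the offsets brought to 0.93 and 0.11.

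The genes most like 3 of the members over the 12 libraries were found by the root mean square difference of log2 CPM after each gene was centred on its own mean. Sox2 was nearest to Sox10 (0.15), Zfp36l1 (0.16) and Sox13 (0.17), against a median of 0.40 over the 12747 genes compared. Sox10, a transcription factor of the oligodendrocyte lineage, ranged from 28.2 to 54.2 CPM. Dcx was nearest to Fgf1 (0.14), Prkacb (0.16) and Edil3 (0.16), against a median of 0.39. Top2a was nearest to Fam150b, Erf and Kif7 (0.24 for each), against a median of 0.45 over 12748 genes. The libraries share depth and the length composition described above, so these values describe likeness over these libraries only.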

How the data were processed

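The deposited tables, 1 per age, hold raw fragment counts per gene with no normalization by the authors. Reads were aligned with TopHat to GRCm38, per the submitters' processing notes; the counting tool, annotation and strand setting are not given in the sources used here, so reads of either strand may have been counted together (Sox4 and Eomes share exon sequence with an antisense gene in the annotation). The labels' protocol describes a small RNA kit, while the counts cover mRNA. Intervals cover counting error only.

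The 44788 and 44786 genes of the tables were joined on 44760 shared names. edgeR 4.0.16 in R 4.3.3 was used with TMM scaling, filterByExpr, the quasi-likelihood F-test and Benjamini-Hochberg adjustment over all genes tested, with a threshold of 0.05. Nicotine was compared with saline within the 6 libraries of an age; the other contrasts used 4 group means over 12 libraries. SE was obtained from the size of the log2 fold change over the root of its F statistic. Alternatives were RLE factors, no filter, DESeq2 1.42.0, a replicate block, offsets from splines of transcript length and GC content (4 degrees of freedom; length known for 30971 genes), fits without single libraries or groups of them, and all 12 libraries in 1 fit; 1 more, without the filter and the 7-month saline library 2, was chosen after seeing the data. The main edgeR fit of each comparison was tested beforehand on simulated data with the same spread for every gene. The alternatives were not tested in this way. With 3 libraries a group the smallest two-sided exact permutation p is 0.1, so no such test was run on single genes. No 2 libraries held identical counts, and the variance between replicates was at least 6.9 times that of counting alone (chi-square per degree of freedom). That value pools all genes with at least 20 counts in a pair of libraries, and need not hold for single genes with few counts.

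The 10 members, the lists (14, with 207 entries) and the tests were chosen with earlier results of these data known. All members were named in the comparisons of nicotine with saline at each age and of age under saline. Not all were named in the other comparisons. Of the stem, neuroblast, cell cycle and granule cell lists, up to 4 called genes with the smallest p were named in each comparison where a list is described. Where none was called, up to 3 genes were named. Also named were the 3 genes most like Sox2, Dcx and Top2a with a mean log2 CPM of at least 1. Gene positions are from GENCODE vM21, and promoters are RefSeq's on GRCm38.p6, found for 9 members. Figures were drawn with matplotlib 3.10.9.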

Additional observations from a re-analysis of the deposited data

Results flagged for a closer look

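The nicotine effect on Sox11 differed between the ages by 0.74 on the log2 scale (SE 0.17). It was looked at again because all nicotine libraries lay below all saline libraries at 7 months (-0.44) and above them at 18 months (0.29). The difference was tested as an interaction over 12 libraries, with an adjusted p of 0.526 in edgeR's quasi-likelihood test and of 0.0275 in DESeq2's Wald test, and with single libraries left out it ranged from 0.62 to 0.81.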

How the results depend on the processing

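Of the members' values under the alternatives, 854 kept direction and side of the threshold, 28 lost the call, 8 gained it with the same sign and 70 changed sign, of which 2, Sox11 and Dcx with offsets, were called only in the alternative. The causes were not tested. Libraries with the same replicate number showed little likeness in their deviations from the group means (correlations -0.0976 to 0.0833). With 3 libraries a group, and with only the order of the numbers checked, this cannot show whether libraries were paired. With the replicate block 1, 9, 5, 0, 8511 and 11017 genes were called (7 months, 18 months, average, difference, age under saline, age under nicotine). Of the members 0, 0, 0, 0, 3 and 6 were called, Draxin being lost under saline. In the block, Dcx had -0.02 in the difference, 0.01 with age under saline and 0.00 under nicotine.

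DESeq2 called 83, 57, 79 and 36 genes in the 4 nicotine comparisons and 2, 1, 2 and 1 members. Without the filter 6, 35 and 15 genes were called at 7 months, at 18 months and on average; all 12 libraries in 1 fit gave 9 and 0 in the first pair. Offsets gave 12 on average. Without both first 7-month libraries 0 genes were called at 7 months, 2 in the difference and 5852 with age under saline. Without the 7-month saline library 2 and nicotine library 1 these were 1 at 7 months, 43 on average and 6 in the difference. Without both 7-month libraries numbered 3 they were 5 at 7 months, 3 in the difference and 5867 with age under saline, where 2 members were called.

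Sign changes with offsets were Dcx 0.09 (7 months), Sox11 0.05 (average), Dcx -0.35 and Mki67 -0.20 (difference), Nes -0.19 and Sox11 -0.39 (age, saline), and Sox2 0.11, Dcx -0.89 and Top2a -0.23 (age, nicotine). Without the first 7-month libraries they were Sox2 0.01 and Mki67 -0.08 (difference) and Sox2 -0.04 (age, saline). Without saline library 2 and nicotine library 1 they were Dcx -0.18 and Mki67 -0.04 (difference) and Dcx 0.32 (age, saline). Without those numbered 3 they were Sox2 0.11 and Igfbpl1 -0.07 (difference), Nes -0.05 and Sox2 -0.09 (age, saline), and Sox2 0.02 and Dcx -0.07 (age, nicotine). Dcx with age under saline was 0.02 with RLE factors and with DESeq2; with no filter Sox2 was -0.03 there and Dcx -0.03 under nicotine. With neither filter nor 7-month saline library 2, chosen after seeing the data, Dcx was 0.25 under saline, where 12360 genes and 4 members were called.

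With single libraries left out, 0 to 2 genes were called at 7 months, 5 to 21 at 18 months, 2 to 21 on average, 0 to 3 in the difference, 6251 to 11793 with age under saline (2 to 4 members) and 10137 to 12688 under nicotine (4 to 6 members). Ranges that crossed 0 were Dcx -0.49 to 0.06 (7 months), Draxin -0.30 to 0.31 (18 months) and -0.07 to 0.24 (average); in the difference Sox2 -0.32 to 0.03, Dcx -0.30 to 0.21, Igfbpl1 -0.62 to 1.01, Draxin -0.44 to 0.18, Mki67 -0.04 to 0.30 and Top2a -0.52 to 0.02; with age under saline Nes -0.05 to 0.18, Sox2 -0.07 to 0.21 and Dcx -0.23 to 0.32; and under nicotine Sox2 -0.32 to 0.03, Dcx -0.11 to 0.13 and Top2a -0.10 to 0.38. Depth limits Eomes, Igfbpl1 at 18 months and Top2a, which rest on few counts.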
